A study of Mus musculus with 4 samples.

Results

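Dendritic cells sorted from the colonic lamina propria of germ-free CD300a-deficient mice were compared with the same cells from germ-free wild-type mice, on 1 Agilent array a side. A gene entered the comparison where its probe was well above background on at least 1 of the pair of arrays, which held for 15707 of the 20653 genes named through a RefSeq accession. The study comprises 4 arrays in all, wild type (WT) and CD300a deficient (labelled KO), each housed either germ-free (GF) or SPF (specific pathogen-free). Both germ-free groups are C57BL/6J mice labelled male, whereas both SPF groups are labelled female, and no age is given. The only genetic difference that the labels state is the CD300a deficiency, and the sources used here do not say how the allele was made. Cells came from 5 mice in each condition, each condition is a single array, and whether the mice were pooled is not stated. No spread between animals could therefore be measured, no test was run, and every difference below describes this pair of arrays.

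CD300a is an inhibitory receptor of myeloid cells that binds phosphatidylserine and phosphatidylethanolamine exposed on dying cells and recruits phosphatases through its cytoplasmic ITIM motifs. Colonic lamina propria dendritic cells take up antigen and dying epithelial cells beneath the epithelium, and a subset of them migrates to lymph nodes. Germ-free mice carry no microbiota, so the pair compares the genotypes where signals from live gut bacteria are absent.

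A level is given as the log2 of the background-subtracted signal minus the 75th percentile of the same array, and a difference is the KO level minus the WT level, so that 1 is 2-fold. Levels are compared between arrays for the same probe and never between probes. The labels were checked first. The Cd300a probe read 7.60 on the germ-free WT array and 8.05 on the germ-free KO array, beside 7.88 and 7.91 on the SPF WT and SPF KO arrays. The sources used here do not place the probe relative to the deleted part, so it does not check the genotype labels. Xist, the RNA that coats the inactive X chromosome and marks female cells, was well above background by both probes on the germ-free KO array and by neither on the germ-free WT array. Its level was 3.62 on the germ-free KO array against -5.08 on the germ-free WT array, a difference of at least 191-fold, beside 4.87 and 5.45 on the female-labelled SPF arrays. The Y-linked helicase gene Ddx3y was measured on both germ-free arrays, at 2.07 on WT and 0.59 on KO, and was not above background on either SPF array. The germ-free KO library therefore goes against its label of male mice only, and with 1 array a side no result can be given without it.

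The labelled cell type was checked against 13 conventional dendritic cell markers, of which 12 were on the array by name and all 12 were above background on both germ-free arrays. Itgax, the integrin alpha chain of CD11c, read 3.19 on WT and 2.15 on KO. Flt3, the receptor for the dendritic cell growth factor, read 0.14 and -0.71, but its second probe differed by 0.10 in the other direction. Zbtb46, a transcription factor of conventional dendritic cells, read -1.56 and -1.26. Markers of other cells were measured too. All 21 macrophage and monocyte markers on the array and 20 of 20 epithelial markers were above background on both germ-free arrays. Of 23 endothelial markers, 21 were above background on both and all 23 on at least 1. In bulk samples such as these, fewer cells of a type and less RNA per cell cannot be told apart.

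Of the 15707 genes, the signal of 1378 was 2-fold or more higher on the KO array (8.77%) and that of 1221 2-fold or more lower (7.77%). These counts, and those of the lists below, take a probe that is not above background on the dimmer array at its measured signal. With such genes at their bound 1094 and 1018 remained past 2-fold, and list counts that change under the bound are given both ways. The split depended on the scaling, since higher genes made up 53.0% of those past 2-fold here, 73.8% after centring on the median gene and 80.0% in the deposited value table, but 38.1% among the genes brighter than the median. The median gene differed by -0.20, 61.0% of genes were lower on KO, and the interquartile range of the differences ran from -0.60 to 0.35. List counts are followed by their range over 5 other scalings: normexp background correction, quantile, cyclic loess, the deposited table and centring. They stand beside shares of 8.77% higher and 7.77% lower over all genes. The direction changed with brightness. In the dimmest quartile of the genes the median difference was 0.10 and 19.2% were at least 2-fold higher, whereas in the brightest quartile the median was -0.41, 3.03% were at least 2-fold higher and 7.46% at least 2-fold lower. With both arrays above background, as held for 14218 genes, 2-fold was passed upward by 812 and downward by 852, and 4-fold by 52 and 21.

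**Figure D1:**
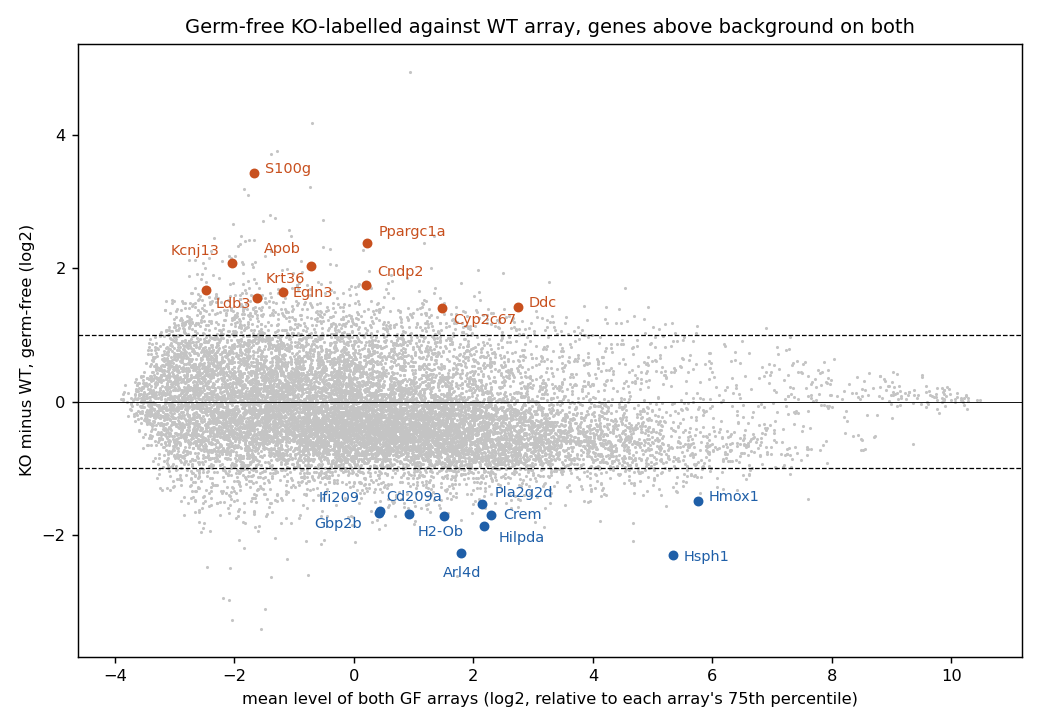
Each grey point is 1 of the 14218 genes above background on both germ-free arrays, with the mean log2 level on the x axis and the log2 difference KO minus WT on the y axis. The dashed lines mark 2-fold, and the coloured points are the 10 genes highest (orange) and the 10 lowest (blue) among those whose every probe passed 2-fold, from S100g at 3.43 to Hsph1 at -2.31.

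The technical error of a single value was read from 399 probes that each array carries on 10 spots. A difference between single spots of the same probe had an SD of 0.43 from this source over all these probes, 0.107 over the 145 brighter than the median gene and 0.53 over the 254 dimmer ones. These probes were not filtered on background. Among the dimmer ones the median SD of a single value was 0.21 on WT and 0.20 on KO, against pooled SDs of 0.38 and 0.37. Spot error covers the array surface and not the sorting, RNA preparation or amplification. Different probes of the same gene gave a second check, since 3557 genes had at least 2 probes above background on both arrays. All probes of a gene had the same direction in 71.9% of them, and the range between a gene's probes had a median of 0.31. Of the 284 such genes past 2-fold by the probe that stands for the gene (the highest mean over the 4 arrays), 85.6% had every probe in that direction and 43.7% had every probe past 2-fold. The share with every probe past 2-fold was 50.5% of 95 genes in the brightest quartile and 14.8% of 27 genes in the dimmest. Every probe passed 2-fold upward for 59 genes (1.66% of the 3557) and downward for 65 (1.83%).

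**Figure D2:**
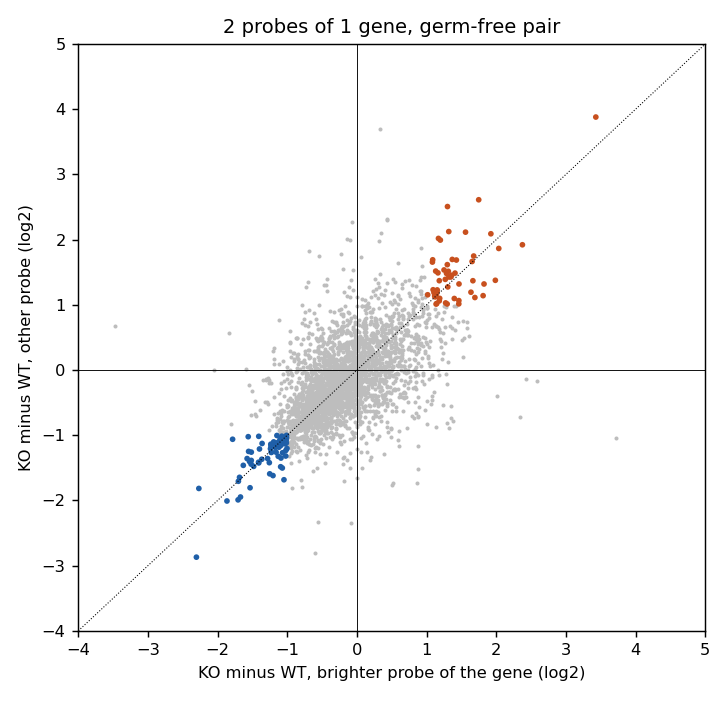
Each point is 1 of the 3001 genes with exactly 2 probes above background on both germ-free arrays, with the log2 difference KO minus WT of the brighter probe on the x axis and of the other probe on the y axis. Orange and blue mark the 117 genes whose probes both passed 2-fold in the same direction; 1 gene passed it in opposite directions, and the dotted line is equality.

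The 10 genes highest on KO by every probe were led by S100g, the vitamin D-dependent calcium-binding protein of the intestine. S100g read -3.38 on WT and 0.04 on KO, and its probes differed by 3.43 and 3.88. Ppargc1a, a coactivator of mitochondrial biogenesis, read -0.96 and 1.41, with probes at 1.92 and 2.38. Apob, the structural protein of chylomicrons and other lipoproteins, read -1.74 and 0.30, with probes at 1.86 and 2.04. The potassium channel gene Kcnj13 differed by 2.09, the dipeptidase gene Cndp2 by 1.75, the keratin gene Krt36 by 1.56 and the cytochrome P450 gene Cyp2c67 by 1.41. Egln3, a prolyl hydroxylase that acts on hypoxia-inducible factor, differed by 1.65 and 1.66 by its probes, and Ldb3, a protein of the muscle Z-disc, by 1.68 and 1.75. Ddc, the aromatic amino acid decarboxylase of serotonin synthesis, read 2.03 on WT and 3.46 on KO. S100g, Apob, Ppargc1a, Krt36 and Cyp2c67 were not above background on either SPF array.

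The 10 lowest genes by every probe were of another kind. Hsph1, a large heat-shock protein of the Hsp110 family, read 6.50 on WT and 4.19 on KO, with probes at -2.87 and -2.31. Hmox1, which degrades heme, read 6.50 and 5.02, and its probes gave -1.48 and -1.48. Hilpda, a hypoxia-inducible lipid droplet protein, read 3.12 and 1.25, with probes at -2.01 and -1.87. Cd209a, the C-type lectin DC-SIGN that marks type 2 conventional dendritic cells, read 2.36 and 0.66, with probes at -1.99 and -1.71. The remaining genes were the small GTPase gene Arl4d at -2.27, the cAMP-responsive transcription factor gene Crem at -1.70, the H2-O beta chain gene H2-Ob at -1.69, and the secreted phospholipase gene Pla2g2d at -1.54. They also included the interferon-inducible genes Gbp2b at -1.67 and Ifi209 at -1.63.

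Probes did not always settle a large difference. Strip2, among the 10 highest genes by a single probe at 3.72, had a second probe at -1.04. The other such genes either had no second probe above background on both arrays or, for S100g, had 1 in the same direction. Pctp, the phosphatidylcholine transfer protein gene, rested on 1 probe, which read -0.40 on WT and -3.68 on KO in the germ-free pair and -0.07 and -2.45 in the SPF pair.

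Genes above background by at least 2 probes on only 1 of the arrays have a bound in place of a fold, taken against the higher of the dim probe's own value and the lowest signal called well above background on the dim array. Besides Xist, the highest bounds on KO were at least 5.14-fold for Tspyl5, at least 3.93-fold for the receptor phosphatase gene Ptprd, with the olfactory receptor gene Olfr401 between them. On WT they were at least 3.20-fold for Ccdc126, at least 2.42-fold for the histone-citrullinating enzyme gene Padi4, at least 2.30-fold for Ropn1l and at least 2.24-fold for the kinesin gene Kif5a. In all, 846 genes were above background only on the KO array and 643 only on the WT array, and the bound reached 2-fold for 282 and 166 of them.

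Heat-shock proteins and co-chaperones, which refold or hold denatured proteins, were mostly lower on the germ-free KO array. By the probe that stands for the gene all 29 measured members had a difference below 0, 16 were at least 2-fold lower (7 to 11 under the other scalings) and none higher, and their median was -1.02 against -0.20 over all genes and -0.41 over all genes of the brightest quartile, where the middle member lies. Upstream of these genes heat-shock factor binds repeats of the letters GAA in alternating orientation. The windows shown are the 250 bases before the annotated start, 5′ to 3′ on the gene's strand, from RefSeq on GRCm38.p6, for the 3 members with the largest differences, for Hspe1, which has 3 probes and overlapping matches, and for Dnajb6, a member with a smaller difference. Capitals mark each match to GAANNTTC or TTCNNGAA, which read the same on both strands.
Hspb1: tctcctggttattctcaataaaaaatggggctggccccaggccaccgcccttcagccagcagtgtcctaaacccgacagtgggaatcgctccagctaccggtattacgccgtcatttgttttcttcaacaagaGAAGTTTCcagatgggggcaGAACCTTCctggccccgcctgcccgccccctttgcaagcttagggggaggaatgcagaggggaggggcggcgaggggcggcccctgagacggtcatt
Hsph1: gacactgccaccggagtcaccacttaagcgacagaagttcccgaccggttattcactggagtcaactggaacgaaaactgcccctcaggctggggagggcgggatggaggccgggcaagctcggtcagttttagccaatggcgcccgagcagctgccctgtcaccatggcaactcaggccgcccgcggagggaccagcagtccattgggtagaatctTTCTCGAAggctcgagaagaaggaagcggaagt
Hspa1a: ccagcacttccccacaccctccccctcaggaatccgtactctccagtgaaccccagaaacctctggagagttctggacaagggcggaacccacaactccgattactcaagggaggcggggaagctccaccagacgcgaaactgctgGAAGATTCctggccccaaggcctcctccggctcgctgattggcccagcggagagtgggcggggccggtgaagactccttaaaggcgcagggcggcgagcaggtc
Hspe1: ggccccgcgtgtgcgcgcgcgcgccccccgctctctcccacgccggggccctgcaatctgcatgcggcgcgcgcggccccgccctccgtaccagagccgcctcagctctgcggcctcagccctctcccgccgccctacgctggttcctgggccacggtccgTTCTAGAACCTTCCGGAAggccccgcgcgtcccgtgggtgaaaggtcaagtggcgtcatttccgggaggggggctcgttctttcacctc
Dnajb6: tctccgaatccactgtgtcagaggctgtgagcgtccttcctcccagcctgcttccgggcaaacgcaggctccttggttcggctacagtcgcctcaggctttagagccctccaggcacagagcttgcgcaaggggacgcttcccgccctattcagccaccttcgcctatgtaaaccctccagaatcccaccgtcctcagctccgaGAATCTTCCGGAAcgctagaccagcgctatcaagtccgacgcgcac
These windows lie at chr5:135887669-135887918 on the plus strand for Hspb1, chr5:149636337-149636586 on the minus strand for Hsph1, chr17:34972157-34972406 on the minus strand for Hspa1a, chr1:55087898-55088147 on the plus strand for Hspe1, and chr5:29735648-29735897 on the plus strand for Dnajb6. The Hspe1 and Hspd1 windows overlap, since the pair of genes is transcribed in opposite directions from the same stretch. The matches of Hspe1 and Hspd1 are the same bases, which the counts below hold for both genes. The motif occurred in 12.8% of 32851 RefSeq promoter windows of this length and in 9 of the 22 measured heat-shock genes that had a window (40.9%). It was found in 7 of the 14 of these genes that were at least 2-fold lower and in 2 of the 8 that were not, and the median difference was -1.37 with it and -1.0 without. A longer form with 3 repeats was in 0.466% of all windows and in 3 of the 22 genes, with medians of -1.02 with it and -1.08 without. Over all 12470 measured genes with a window the medians were -0.23 with and -0.21 without.

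The small heat-shock protein gene Hspb1 read 3.03 on germ-free WT and 0.42 on germ-free KO, and 5.32 and 5.71 on the SPF arrays. Hspa1a, the inducible Hsp70, read 5.71 and 3.63 in the germ-free pair and 7.60 and 7.26 in the SPF pair. The co-chaperone gene Bag3 read 3.93 and 2.13, and 6.33 and 6.10. For each of these genes the germ-free KO array was lowest of the 4 and the SPF arrays lay close together and higher. Dnajb1, an Hsp40 that activates Hsp70, read 8.33 and 6.86 in the germ-free pair and 10.2 on SPF WT, where KO differed by -0.20. Hspe1, the mitochondrial Hsp10, differed by -1.37 to -1.27 over 3 probes, and Hspd1, its Hsp60 partner, by -1.02. Smaller differences were measured for the mitochondrial Hsp70 gene Hspa9 at -0.07, for Cryab at -0.03 and for the factor genes Hsf1 at -0.30 and Hsf2 at -0.43. The probes of Dnajb6 ranged from -0.90 to 0.34 and those of Hspa4 from -0.55 to 0.46, so neither has a settled direction. In the SPF pair none of the 29 members passed 2-fold in either direction, and their median was 0.04.

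**Figure D3:**
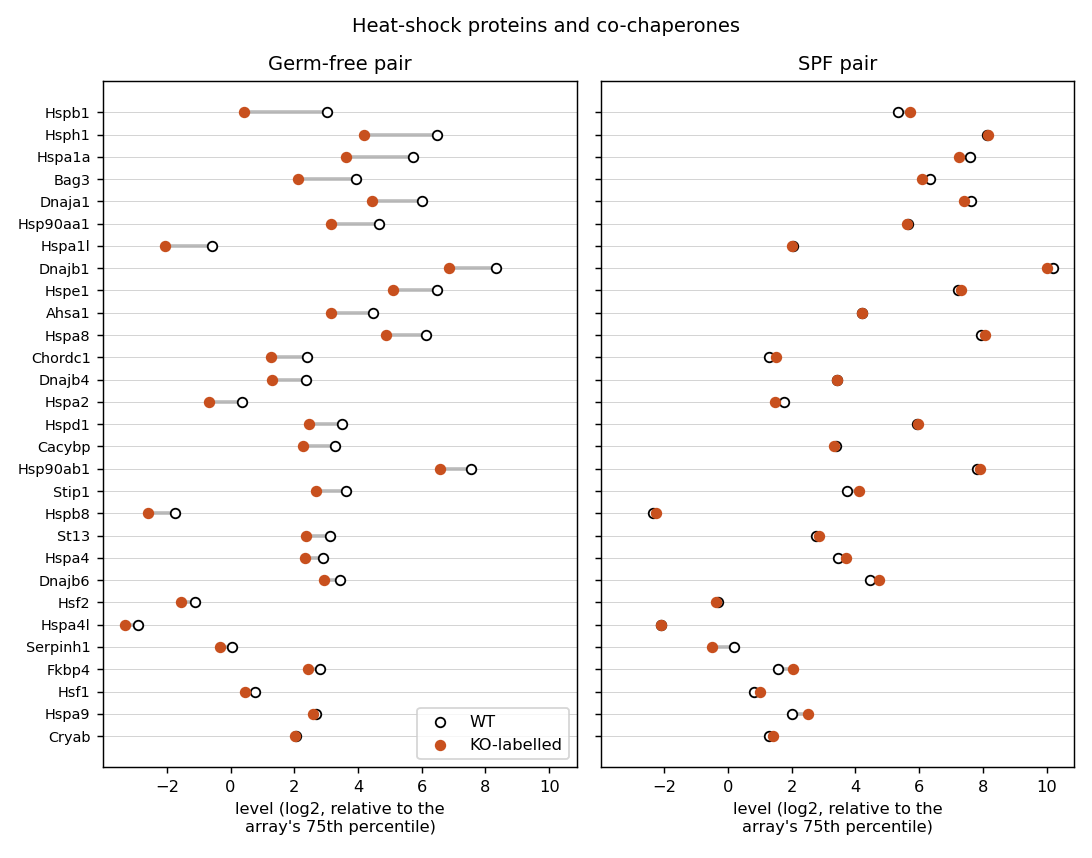
Levels of the 29 heat-shock genes on a log2 scale relative to each array's 75th percentile, WT as open and KO as filled circles, for the germ-free pair (left) and the SPF pair (right), ordered by the germ-free difference. The KO circle lies left of the WT circle for all 29 genes in the germ-free pair, by 2.61 for Hspb1 and 0.03 for Cryab, while the SPF circles lie close together.

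Other stress genes were lower as well. In the unfolded protein and integrated stress response, all 24 members were below 0 and 8 were at least 2-fold lower (1 to 6 under the other scalings). Their median was -0.81 (-0.70 to -0.50), against -0.41 over all genes of the brightest quartile. Herpud1, of endoplasmic reticulum-associated degradation, read 4.58 on WT and 3.32 on KO, the chaperone cofactor gene Sdf2l1 read 6.05 and 4.72, and Ddit3, which encodes the transcription factor CHOP, read 1.84 and 0.56. The sensor gene Ern1 differed by -0.03 and the asparagine synthetase gene Asns by -0.05. Of 26 immediate early transcription factors and phosphatases, 7 were at least 2-fold lower (26.9%, beside 7.77% of all genes, and 1 to 7 under the other scalings). None was higher. Their median was -0.67 (-0.64 to -0.23), against -0.41 over all genes of the brightest quartile. Klf2 differed by -1.33, Ier5 by -1.32, Nr4a2 by -1.23 and Junb by -1.11, while Zfp36 differed by -0.33 and Egr3 by -0.18.

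Genes of antigen presentation were mostly lower on KO. Among 18 MHC class II genes, 7 were at least 2-fold lower (3 to 7 under the other scalings) and none higher (median -0.83, against -0.41 over all genes of the brightest quartile). The H2-O chains, which restrain peptide loading, were lowest, with H2-Oa at 2.10 on WT and 0.45 on KO and H2-Ob at 1.76 and 0.08. The H2-M chain gene H2-DMa read 5.31 and 4.07, the class II chain gene H2-Ab1 7.92 and 7.24, and the class II master regulator Ciita 2.63 and 2.42. The regulator thus differed by -0.21 while loading factors and chains differed by more. Among 21 MHC class I and peptide-loading genes, 5 were at least 2-fold lower (3 to 5 under the other scalings) and none higher. Their median was -0.91, against -0.41 over all genes of the brightest quartile. The immunoproteasome subunit genes Psmb8 and Psmb9 differed by -1.48 and -1.37 and B2m, the class I light chain, by -1.02. H2-Q4 was the 1 member above 0, at 0.91.

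Among the maturation and migration genes, 10 of 23 measured were at least 2-fold lower on KO (9 with bounds, 6 to 8 under the other scalings) and none higher. The share by signal was 43.5%, beside 7.77% of all genes. Their median was -0.83, against -0.28 over all genes of the quartile where the middle member lies. Ccr7, the chemokine receptor for lymph node homing, read 1.37 on germ-free WT and -0.54 on germ-free KO, and 1.91 and 4.01 on SPF WT and SPF KO. The direction was thus opposite in the SPF pair. Ccl22, a chemokine of mature dendritic cells, differed by -1.69, the bundling protein gene Fscn1 by -1.29, and Cd274, which encodes PD-L1, by -1.30. The costimulatory gene Cd80 read 0.89 by the probe that stands for it and -0.56 by its other probe.

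Inflammatory cytokines and chemokines had 15 of 29 measured members at least 2-fold lower (6 to 12 under the other scalings) and none higher. Their median was -1.03, or -0.89 over the 25 above background on both arrays. All genes of the quartile where the middle member lies had a median of -0.28. Il10, an anti-inflammatory cytokine, read 3.15 on WT and 1.41 on KO, and Tnf read 2.94 and 1.43. The monocyte chemokine gene Ccl8 read 5.57 and 3.75 and the interferon-induced chemokine gene Cxcl10 1.98 and 0.43. The neutrophil chemokine gene Cxcl3 and Il23a, which encodes the p19 subunit of IL-23, were above background on the WT array only, at least 5.01-fold and at least 3.54-fold higher there. Chemokines of the same family did not all follow, since Cxcl1 differed by 0.70 and Cxcl5 by 0.68, and the probes of Cxcl9 lay at 0.00 and -1.66. Il10 was opposite in the SPF pair, at 4.08 on WT and 5.46 on KO.

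Signalling genes upstream of these were lower by a smaller list median. Of 18 NF-κB subunits and feedback inhibitors, 4 were at least 2-fold lower (0 to 3 under the other scalings) and none higher, and the median of -0.55 lay near the -0.41 of all genes of the brightest quartile. They were the feedback inhibitor genes Nfkbia at -1.38, Nfkbid at -1.24, Tnfaip3 at -1.14 and Zc3h12a at -1.04. The gene Ikbke, which encodes the kinase IKK epsilon, differed by 0.32. Of 28 Toll-like receptors and adaptors, 4 were at least 2-fold lower (14.3%, beside 7.77% of all genes, and 0 to 1 under the other scalings). None was higher, and the median was -0.57 against -0.28 over all genes of the quartile where the middle member lies. The lower genes were the lipopolysaccharide co-receptor gene Cd14 at -1.22, Tlr3 at -1.10, the receptor chaperone gene Unc93b1 at -1.07 and Tlr2 at -1.05. Tlr9, the receptor for unmethylated DNA, differed by 0.59.

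Of 37 measured interferon-stimulated genes, 7 were at least 2-fold lower (3 to 8 under the other scalings) and none higher. Their median was -0.63, against -0.28 over all genes of the quartile where the middle member lies. The guanylate-binding protein genes Gbp6, Gbp2 and Gbp3 differed by -1.53, -1.50 and -1.46, Ifit3 by -1.24 and Oas3 by -1.21. Isg15, a ubiquitin-like modifier, read 1.87 on WT and 0.66 on KO, with probes at -1.62 and -1.21. The upstream windows of Gbp2 and Isg15 are shown because both genes passed 2-fold and hold the interferon-stimulated response element searched here, GAAANNGAAA or its reverse complement, in capitals.
Gbp2: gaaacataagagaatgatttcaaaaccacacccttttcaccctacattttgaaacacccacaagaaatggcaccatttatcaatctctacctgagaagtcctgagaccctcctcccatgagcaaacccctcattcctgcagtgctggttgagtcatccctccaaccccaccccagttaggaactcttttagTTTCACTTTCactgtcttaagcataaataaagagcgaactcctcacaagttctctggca
Isg15: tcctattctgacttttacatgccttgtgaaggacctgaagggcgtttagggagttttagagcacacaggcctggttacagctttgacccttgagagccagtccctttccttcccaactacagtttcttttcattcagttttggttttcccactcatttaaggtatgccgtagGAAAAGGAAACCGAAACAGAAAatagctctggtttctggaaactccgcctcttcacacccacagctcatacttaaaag
They lie at chr3:142620413-142620662 on the plus strand and chr4:156200819-156201068 on the minus strand (GRCm38.p6, RefSeq), and the run in Isg15 joins 3 overlapping matches. The element occurred in 2.98% of the 32851 windows and in 16 of 29 interferon-stimulated genes with a window, in 5 of the 6 that were at least 2-fold lower and in 11 of the 23 that were not. The median difference was -0.89 with it and -0.49 without. Over all 12470 measured genes with a window the medians were -0.33 with it and -0.21 without. Of these genes 12.4% with it and 7.64% without were at least 2-fold lower. Iigp1, an interferon-inducible GTPase gene, had probes at 0.61 and -1.17, so its direction is not settled. A kappaB search with GGGNNTTTCC on both strands matched 1.41% of the windows and 7 of 19 cytokine genes, with medians of -1.03 with and -1.10 without.

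The CD300 family, of which CD300a is a member, was divided. Cd300ld read 0.53 on germ-free WT and -2.07 on germ-free KO, and 0.96 and 1.22 in the SPF pair. Cd300c2, an activating member, read 2.68 and 0.91 in the germ-free pair and 3.76 and 3.04 in the SPF pair. Those were the 2 of 7 measured members at least 2-fold lower (28.6%, beside 7.77% of all genes, and 2 under each of the other scalings). None was higher (0 to 1 under the other scalings). The family median was -0.46, against -0.28 over all genes of the quartile where the middle member lies. Cd300lf differed by -0.66, with probes at -0.77 and -0.66, Cd300lb by -0.46, Cd300a by 0.45, Cd300lg by 0.53 and Cd300e by 0.98. Cd300ld, Cd300c2 and Cd300a each rest on 1 probe. Of 17 other phosphatidylserine receptors and bridging proteins, 2 were at least 2-fold lower (11.8%, near the 7.77% of all genes, and 0 to 2 under the other scalings) and none higher, with a median of -0.47 against -0.41 over all genes of the brightest quartile: Havcr2, which encodes TIM-3, at -1.20 and the complement gene C1qb at -1.10. Mfge8, a bridge between phosphatidylserine and integrins, differed by 0.37 and Mertk by -0.39. Of 15 ITIM-signalling receptors, phosphatases and adaptors, 3 were at least 2-fold lower (20%, beside 7.77% of all genes, and 0 to 2 under the other scalings). None was higher, and the median was -0.58 against -0.41 over all genes of the brightest quartile. Ptpn6, the phosphatase SHP-1 that ITIMs recruit, read 3.64 on WT and 2.45 on KO, Fcgr2b, the inhibitory Fc receptor, 3.85 and 2.74, and Ptpn11, the phosphatase SHP-2, 2.75 and 2.63.

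Transcripts of the colonic epithelium were higher on the KO array. Over 5 lists, 115 epithelial genes were measured, of which 45 were 2-fold or more higher, 1 was at least 2-fold lower and 107 were above 0, with a median of 0.87. Over all genes 8.77% were at least 2-fold higher, 7.77% were at least 2-fold lower and the median was -0.20. These genes mark a cell type other than the sorted one. The medians of these 5 lists lay above 0, whereas those of the immune and stress lists above lay below 0. Some of the latter lay near the median of all genes of their quartile. The log2 of the summed signal of the 20 epithelial markers was 8.74 on WT and 9.52 on KO. For the 12 conventional dendritic cell markers it was 5.53 and 4.87. The brightest probes weigh most in such a sum, and each sum is compared between arrays only. The part of this shift in the other results was not tested.

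Enteroendocrine cells are the hormone-secreting cells of the epithelium. Of 32 listed genes 22 were measured, 13 of these were at least 2-fold higher (5 to 17 under the other scalings) and none lower, and the median was 1.20 (0.47 to 1.49), against -0.10 over all genes of the quartile where the middle member lies. Since 7 of the 22 were above background on 1 array only, the 15 above background on both are given too: 7 of them were at least 2-fold higher, with a median of 0.93. Pyy, the peptide YY hormone gene, read -2.79 on germ-free WT and 1.40 on germ-free KO, and -1.91 and -1.49 in the SPF pair. Chga, which encodes the granule protein chromogranin A, read -2.35 and 0.87, and Chgb read -0.98 and 1.29. Gcg, the proglucagon gene, was above background on the KO array only, by at least 8.65-fold. The serotonin synthesis genes Tph1, above background on KO only, and Ddc were at least 3.29-fold higher and 1.43 higher on the log2 scale. The somatostatin gene Sst differed by 1.44. The members were not alike, since Pcsk1n, an inhibitor of prohormone convertase, read 3.55 on WT and 3.24 on KO and the transcription factor gene Nkx2-2 differed by -0.08. The L-cell hormone gene Insl5 differed by 0.66. The remaining 10 genes, among them Gip, Nts and Neurog3, were above background on neither germ-free array.

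**Figure D4:**
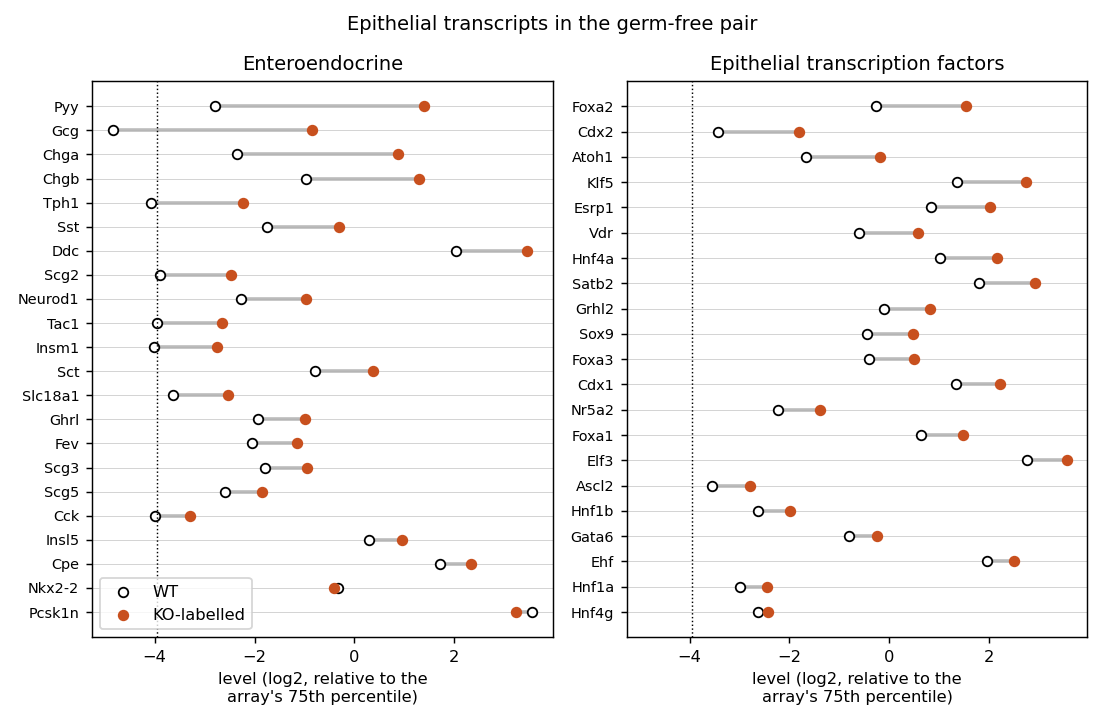
Levels on the germ-free arrays (log2, relative to each array's 75th percentile), WT as open and KO as filled circles, for 22 enteroendocrine genes and 21 epithelial transcription factors ordered by their difference. The dotted line is the lowest level called well above background on the WT array, and values left of it are not above background; the KO circle lies right of the WT circle for all genes drawn except Nkx2-2 and Pcsk1n.

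All 21 measured epithelial transcription factors were above 0 and 8 were at least 2-fold higher (38.1%, beside 8.77% of all genes, and 4 to 16 under the other scalings). Their median was 0.90, against -0.28 over all genes of the quartile where the middle member lies. Foxa2 differed by 1.81, the intestinal identity factor Cdx2 by 1.62, the secretory lineage factor Atoh1 by 1.48 and Klf5 by 1.38, while Hnf4g differed by 0.21. In the SPF pair 15 of these factors were measured, with 8 past 2-fold upward on KO, 1 downward and a median of 1.14. Of 19 goblet cell and mucus genes, 6 passed 2-fold upward (31.6%, and 3 to 12 under the other scalings) and 1 downward. Their median was 0.87, against -0.41 over all genes of the brightest quartile. Muc2, the main secreted mucin of the colon, read 1.53 on WT and 3.46 on KO, and -0.44 and -1.26 in the SPF pair. Spdef, the goblet cell differentiation factor, differed by 1.46, but Retnlb, a goblet cell protein of antibacterial defence, by -1.35. Of 27 absorptive colonocyte genes, 12 were at least 2-fold higher (44.4%, and 10 to 17 under the other scalings) and none lower. Their median was 0.77, against -0.41 over all genes of the brightest quartile. The sodium channel subunit gene Scnn1a differed by 1.56 and the water channel gene Aqp8 had probes at 1.25 and 1.53. Fabp2 differed by 0.09 and Krt18 by 0.07. Of 26 junction and adhesion genes, 6 were at least 2-fold higher (23.1%, and 3 to 16 under the other scalings) and none lower. Their median was 0.77, against -0.28 over all genes of the quartile where the middle member lies. The desmosome genes Dsp and Dsg2 differed by 1.35 and 1.39 and Cdh1, which encodes E-cadherin, by 1.15, while F11r differed by -0.19.

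**Figure D5:**
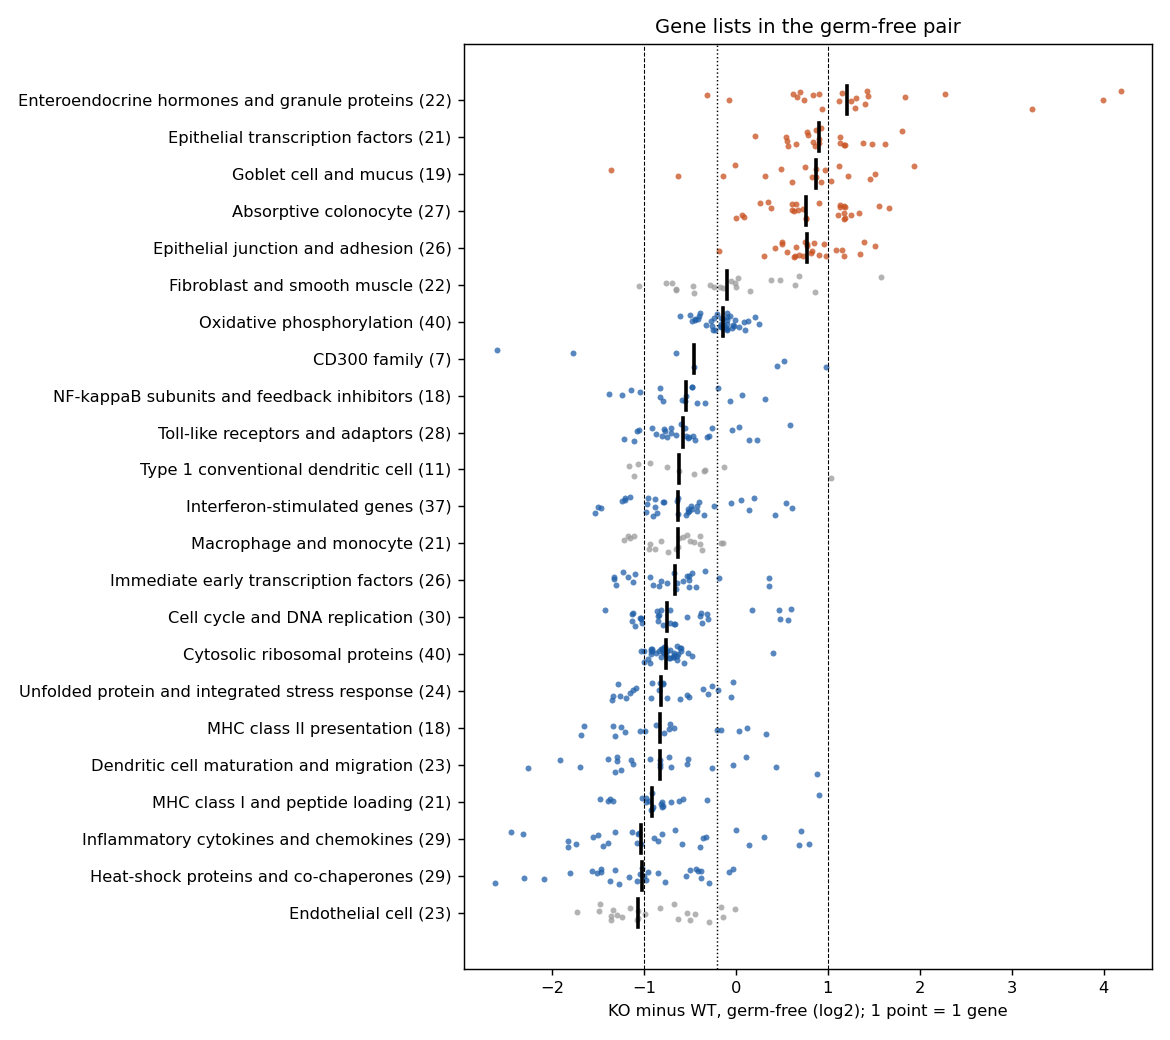
Each point is 1 measured gene and its log2 difference KO minus WT in the germ-free pair, in 23 of the gene lists with the number of measured genes in brackets. Thick bars are list medians, the dotted line is the median of all genes at -0.20 and the dashed lines mark 2-fold; epithelial lists (orange) lie to the right, from 0.77 to 1.20, and the endothelial, cytokine and heat-shock lists lie lowest, at -1.07, -1.03 and -1.02.

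Lists of growth and metabolism genes followed no common pattern. Among 40 cytosolic ribosomal protein genes, 39 were below 0. Their median was -0.76 (-0.75 to -0.31 under the other scalings), against -0.41 over all genes of the brightest quartile. Only Rpsa was at least 2-fold lower, at -1.03, and none was under the other scalings. Rps3 was the 1 member above 0, with probes at 0.40 and -0.62. The 40 oxidative phosphorylation genes lay around -0.14, from -0.61 for Ndufa4 to 0.25 for Cyc1, and none passed 2-fold in either direction. Their median turned above 0 under quantile scaling, cyclic loess scaling, centring and in the deposited table. Of 25 glycolysis and hypoxia genes, Egln3 was at least 2-fold higher and Pfkfb3, an activator of glycolysis, at least 2-fold lower at -1.15, and the list median was -0.22, which turned above 0 under quantile scaling, cyclic loess scaling and in the deposited table. Gapdh differed by -0.54 to -0.38 over 7 probes. Of 30 cell cycle and replication genes, 9 were at least 2-fold lower (8 with bounds, 1 to 5 under the other scalings) and none higher. The share by signal was 30%, beside 7.77% of all genes. Their median was -0.75 (-0.69 to -0.46), against -0.28 over all genes of the quartile where the middle member lies. The replicative helicase genes Mcm3, Mcm4 and Mcm5 differed by -1.13, -1.12 and -1.09 and Pcna by -1.04, while Mki67 differed by -0.31 and Top2a by 0.57.

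Of 22 measured genes that favour regulatory T cells, 3 were past 2-fold upward by signal (13.6%), 2 with bounds and 0 to 4 under the other scalings. Downward 2 passed (9.09%, and 1 to 2 under the other scalings). These shares lay near the 8.77% and 7.77% of all genes. The median was -0.31, against -0.19 from all genes of the members' quartiles. Il10 and Cd274 were the lower pair. Tgfb2 was above background on KO only, by at least 2.90-fold, and Arg1 likewise by at least 1.65-fold. The retinaldehyde dehydrogenase genes moved apart, Aldh1a1 from 4.03 on WT to 4.95 on KO and Aldh1a2 from 0.70 to 0.02.

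Marker lists of the cells that a sort could hold were counted in the same way. For these lists, here and in the next paragraph, the shares over all genes were 7.77% at least 2-fold lower and 8.77% at least 2-fold higher. Of the conventional dendritic cell markers, 4 of 12 were at least 2-fold lower (33.3%, and 1 to 2 under the other scalings) and none higher. Their median was -0.83, against -0.28 over all genes of the quartile where the middle member lies. For type 1 cells 3 of 11 were lower (27.3%, and 0 to 2) and 1 higher. The type 1 median was -0.62, against -0.28 over all genes of the quartile where the middle member lies. Batf3 differed by -1.16 and Irf8 by -0.75, and Xcr1 was above background on neither array. For type 2 cells 4 of 14 were lower (2 to 3) and none higher, led by Clec4a4, which read 0.24 on WT and -1.85 on KO. The type 2 median was -0.55, against -0.41 over all genes of the brightest quartile. Of 12 plasmacytoid dendritic cell markers 1 was lower (median -0.20), with Siglech probes at 0.21 and -0.99. All 21 macrophage and monocyte markers were below 0 and 4 were at least 2-fold lower (0 to 3), among them the lysozyme gene Lyz2 from 5.99 to 4.77. The macrophage and monocyte median was -0.63, against -0.41 over all genes of the brightest quartile.

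All 23 endothelial markers were below 0 and 12 were at least 2-fold lower (10 with bounds, 4 to 13 under the other scalings). The share by signal was 52.2%, beside 7.77% of all genes. Their median was -1.07 (-1.06 to -0.51), against -0.10 over all genes of the quartile where the middle member lies. Among the lower genes were the tight junction gene Cldn5, from 0.77 to -0.97, and Pecam1, from 1.01 to -0.35. The log2 of the summed signal of the endothelial markers was 5.25 on WT and 4.62 on KO. Of 22 fibroblast and smooth muscle markers, 1 was higher and 1 lower (median -0.10). Of 12 measured neutrophil and eosinophil markers 5 were lower and 1 higher by signal, and none higher with bounds (median -0.42), and S100a9, a granulocyte calcium-binding protein, was above background on WT only, by at least 4.12-fold, while S100a8 and Ly6g were above background on neither. Of 12 measured B and plasma cell markers 2 were lower (median 0.03), and Ms4a1 was above background on neither array. Of 16 measured T cell and innate lymphoid cell markers 4 were lower, or 3 with bounds, and 2 higher (median 0.25). The probes of Cd2, an adhesion receptor of T cells, both lay at -1.37. Cd3d, Trac and Gata3 were above background on neither array. Of mast cell markers 4 were measured, 2 lower and 1 higher (median -0.99), and Cpa3 and Fcer1a were above background on neither. Of 11 measured enteric neuron and glia markers 4 were higher and 1 lower by signal, and 2 and 0 with bounds (median 0.76, or 0.21 with bounds). The medians of the plasmacytoid, B cell, T cell and fibroblast lists changed sign under at least 1 other setting.

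The remaining lists hold transcripts not tied to these cells. Of 1372 sensory receptor genes 331 were measured, 78 of them past 2-fold upward by signal (23.6%) and 44 downward (13.3%), beside 19.2% and 12.6% of all genes in the dimmest quartile, where most of the list lies. With bounds the counts were 46 and 22, and the other scalings gave 4 to 113 and 7 to 57. Of 10 measured sex-linked transcripts, 2 were higher, Xist and Kdm6a, and 1 was lower, Ddx3y (median -0.38). The Y-linked genes Eif2s3y and Uty differed by -0.91 and -0.67.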

How the data were processed

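RNA of sorted cells was amplified with a whole-transcriptome kit, labelled with Cy3 and hybridised to 1-colour Agilent arrays, per the labels' protocols. The deposited scanner files hold spot intensity values that the authors' scanner software, Feature Extraction 10.10.1.1 with protocol GE1_1010_Sep10, had background-subtracted, per the file headers, which name build mm9. The deposited value table holds the same intensity values multiplied by 1 factor per array, 7.08 for germ-free WT and 7.96 for germ-free KO, and was used as an alternative scaling.

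After 3671 control spots and the spots called outliers were left out (176 on germ-free WT and 144 on germ-free KO), log2 intensity minus the array's 75th percentile was taken and spots of the same probe were averaged. No gene's probe was saturated on a germ-free array. Probes were named by RefSeq accession without version (27223 of 55681, with 19 left unnamed for conflicting names), and a gene with several probes was represented by the 1 with the highest average level. Where a gene was above background on 1 array only, its fold is a lower bound. The germ-free arrays share 1 slide.

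The members and the 38 gene lists (790 symbols, 773 matched, 1 of them by synonym, 43 in more than 1 list) were chosen with earlier results of these data known. Genes named in the text are the 10 highest and 10 lowest whose every probe passed 2-fold, ranked by the probe with the smallest difference, the 4 highest bounds on each array by at least 2 probes, list members, the CD300 family, Pctp, and genes among the 10 highest or lowest by 1 probe whose other probe disagreed. With 1 array a group no test was run. The number of arrays limits the precision. The scripts recovered differences planted in simulated data, which checks the code only. The planted differences were well past 2-fold, in every probe of genes above background on both arrays. The simulated noise was smaller than the spot error of dim probes, so recovery was nearly fixed in advance. Alternatives were normexp background correction, quantile and cyclic loess scaling, centring, filters on dim genes, other rules for probes and outlier spots. Normexp was planned on mean spot signals, a column not used here, and was run on median signals with an offset of 50. Software was R 4.3.3, limma 3.58.1, data.table version 1.17.8, Python 3.11.15, pandas 2.3.3, numpy 2.4.6 and matplotlib 3.10.9.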

Additional observations from a re-analysis of the deposited data

Results flagged for a closer look

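Lists were flagged where the germ-free and the SPF median lay on opposite sides of 0 and were each at least 0.3 in size. Lists with a smaller SPF median were left out, such as cytokines at -1.03 and 0.26 and ribosomal proteins at -0.76 and 0.17. Each median covers the genes measured in that pair. The difference between the pairs was not tested, and the pairs also differ in labelled sex. For dendritic cell maturation and migration the median was -0.83 under germ-free housing and 0.59 under SPF housing, a gap of 1.42. For NF-κB subunits and feedback inhibitors the medians were -0.55 and 0.70, a gap of 1.25. For the unfolded protein and integrated stress response they were -0.81 and 0.51, a gap of 1.32. For sex-linked transcripts they were -0.38 over 10 measured genes and 0.44 over 7, a gap of 0.81 that is not between the same genes. Ccr7, of the maturation and migration list, differed by -1.91 in the germ-free and 2.10 in the SPF pair.

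Probes that carry a genome interval in place of a gene accession were not used in the comparison. Of 16194 such probes, 1340 were above background on the germ-free KO array only and 615 on the germ-free WT array only.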

How the results depend on the processing

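The counts past 2-fold, 1378 higher and 1221 lower, were 283 and 358 under normexp on median signals (chosen after seeing the data), 2291 and 571 in the deposited value table, and 307 and 498 among genes brighter than the median. Centring on the median gene left 711 lower, and requiring both arrays above background left 812 higher. With genes above background on 1 array at their bound (added after seeing the data) the counts were 1094 and 1018. The median of all genes, -0.20, was 0.08 in the deposited table, -0.09 after cyclic loess and -0.13 under normexp. The probe agreement, the share of genes whose probes all had 1 direction, was 71.9% and 71.7% under normexp.

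Of 38 list medians, 31 kept their sign under all 10 alternatives. The exceptions were as follows. Oxidative phosphorylation was 0.23 under quantile scaling, 0.26 under cyclic loess, 0.15 in the deposited table and 0.062 after centring. Glycolysis and hypoxia was 0.089 under quantile scaling, 0.17 under cyclic loess and 0.068 in the deposited table. Fibroblast and smooth muscle markers were 0.017 under cyclic loess, 0.19 in the deposited table and 0.11 after centring. Plasmacytoid markers were 0.084 in the deposited table and 0.31 among brighter genes. B cell and plasma cell markers were -0.041 under normexp, -0.10 under quantile scaling and -0.12 with the mean over probes. Among brighter genes the CD300 family was 0.45 and T cell markers were -0.72. The cause was not tested.

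The 239 genes followed were those named by rank and the list members past 2-fold outside the sensory receptor list. All were chosen for passing 2-fold here, so a change of sign under another scaling of the same arrays was unlikely in advance. None changed sign, and 82 stayed past 2-fold under every alternative that measured them. Past 2-fold were 130 of 239 under normexp and 163 in the deposited table. No paired analysis was possible because each group is a single array, and leaving out an array leaves no pair. Spot error was larger for probes dimmer than the median gene (SD 0.53 against 0.107), which limits dim genes. Those probes were not filtered on background, so the error of the dim genes compared was not measured separately.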

Other observations

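Probes named by a genome interval and a strand letter, F or R as the files give it, stand for stretches of mm9 without a gene accession. In each quartile of brightness their median difference lay above that of the named genes: 0.42 against 0.10 in the dimmest quartile, 0.29 against -0.10 and 0.19 against -0.28 in the next, and -0.28 against -0.41 in the brightest. Of 2002 intervals with several probes above background on both germ-free arrays, 86 were at least 2-fold higher on KO by every probe (4.30%) and 11 were lower (0.549%), beside 1.66% and 1.83% of genes by the same rule. Other probes without a gene name also lay upward: of 7628 above background on at least 1 array, 17.2% were past 2-fold upward and 5.61% downward, beside 19.8% and 5.97% of the 9993 interval probes. The interval chr12:82495575-82516300, R, was lower by all 5 of its probes, from -1.61 to -1.38, with a mean level of 4.57 on WT and 3.08 on KO.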
